A study of Mus musculus with 4 samples.

Results

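The genes described here encode the subunits of the Arp2/3 complex, the assembly that starts new actin filaments as branches on the side of existing ones. The members were taken by name: Actr2, Actr3, Arpc1a, Arpc1b, Arpc2, Arpc3, Arpc4, Arpc5 and Arpc5l, which are 9 of the 43346 genes in the count files. All 9 passed the filter on low counts and stood among the 16009 genes tested. The series measured heart RNA on postnatal day 0, with 2 libraries labelled MRTFA/B double knockout, of mixed strain background, and 2 labelled wild type, of ICR background. MRTFA and MRTFB are coactivators of serum response factor (SRF) that leave the cytoplasm when actin polymerises. The comparison addresses gene expression in hearts labelled as double knockout for their genes. The labels do not say in which cells or by which alleles the genes were deleted, nor whether the libraries of a group came from separate animals. All p-values thus reflect variation between libraries that may be technical only, and genotype and strain background cannot be told apart.

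The complex holds 7 proteins. ARP2 and ARP3 resemble actin and, once activated, form the first units of the new branch. ARPC2 and ARPC4 form the core that lies along the mother filament, and ARPC1, ARPC3 and ARPC5 complete the assembly. Mammals carry a pair of genes for ARPC1 and another for ARPC5, so complexes of different makeup exist side by side. With the human proteins, complexes holding ARPC1B and ARPC5L branch actin more efficiently than those holding ARPC1A and ARPC5. Because branching consumes free actin monomers, which hold MRTFs in the cytoplasm, Arp2/3 lies upstream of MRTF as well as being a cytoskeletal machine that SRF could in principle regulate.

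The genes lie on 5 chromosomes of build mm10 (GENCODE M21 annotation, whole-gene counts over exons). On chromosome 1 are Arpc2 (ENSMUSG00000006304, 74236084 to 74268209, plus strand), Actr3 (ENSMUSG00000026341, 125392905 to 125435727, minus) and Arpc5 (ENSMUSG00000008475, 152766542 to 152775597, plus). On chromosome 5 are Arpc3 (ENSMUSG00000029465, 122391878 to 122414184, plus) and the neighbours Arpc1a (ENSMUSG00000029621, 145083830 to 145108761, plus) and Arpc1b (ENSMUSG00000029622, 145114215 to 145130705, plus). The ARPC1 paralogs thus stand side by side on 1 strand, while those of ARPC5 are on different chromosomes. Arpc5l (ENSMUSG00000026755, 39005348 to 39015877, plus) is on chromosome 2, Arpc4 (ENSMUSG00000079426, 113378115 to 113390448, plus) on chromosome 6 and Actr2 (ENSMUSG00000020152, 20062304 to 20112913, minus) on chromosome 11.

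SRF binds the CArG box, a sequence of 10 bases that reads the same way on both strands (a pair of C, then A or T at the inner positions, then a pair of G). RefSeq promoter windows (GRCm38.p6, 250 bases before to 50 after the start) were found for 8 of the 9 genes. A CArG box lay in 1 of the 8 (12.5%), that of Arpc4, against 1.63% of all 32851 windows in the table. A CArG box or a sequence 1 letter away from it lay in 2 of the 8 (25.0%), those of Arpc4 and Arpc1a, against 21.1% of all windows. The stretches that hold these matches are shown because they are the sequences in these promoters closest to the site that the deleted coactivators act through. Capitals mark the CArG box in Arpc4 (chr6:113377863-113377962, plus strand) and the stretch 1 letter off in Arpc1a (chr5:145083719-145083818, plus strand).
Arpc4: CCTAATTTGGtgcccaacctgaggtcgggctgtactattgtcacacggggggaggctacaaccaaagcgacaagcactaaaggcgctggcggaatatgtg
Arpc1a: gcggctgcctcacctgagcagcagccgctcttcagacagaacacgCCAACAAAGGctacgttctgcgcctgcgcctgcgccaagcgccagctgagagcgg
A match in letters is a description of the window and says nothing about whether SRF binds there. The Arpc4 box began 250 bases before the RefSeq start, at the edge of the window searched.

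Total counts were 27328195 and 16175259 in the double knockout libraries and 29460641 and 25205257 in the wild type libraries. Mrtfa was at 3.35 and 2.26 CPM in double knockout hearts against 9.06 and 11.1 CPM in wild type hearts, and its edgeR adjusted p was 0.120. Mrtfb was at 46.0 and 49.6 CPM in double knockout hearts and at 46.9 and 56.8 CPM in wild type hearts, an overlap. Whole-gene counts would include any exons left in place, and the alleles and cells are not given, so this level cannot check the deletion. Srf was at 71.9 and 79.4 CPM in double knockout hearts and at 111 and 85.6 CPM in wild type hearts (edgeR adjusted p = 0.284). All 7 cardiomyocyte markers were read in every library. Their sum was 36215 to 38135 CPM in double knockout and 39105 to 40098 CPM in wild type, lower in both double knockout libraries. Of the 7, 2 had a log2 fold change above 0 and 0 passed the edgeR test. In whole hearts, fewer cells of a type and less RNA per cell cannot be told apart. CPM values were computed over the tested genes and adjusted between libraries by TMM factors.

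Transcripts of the Arp2/3 complex lay at nearly the same level in double knockout and wild type hearts. Of the 9 subunits, 0 rose and 0 fell by edgeR's quasi-likelihood test at an adjusted p under 0.05, where 12 of all 16009 genes tested (0.075%) passed. At an unadjusted p under 0.05 the count was also 0 of 9, against 17.3% of all genes tested, and DESeq2 called 0 of 9, against 3.32%. Fold changes on the log2 scale, double knockout over wild type, ran from -0.18 for Actr3 to 0.16 for Arpc1a. Of these, 5 were below 0 and 4 above, with a median of -0.02, and the median over all genes tested was 0.01. The median of the 9 kept to no side when a library was left out. Leaving out double knockout library 1 gave 0.08 and leaving out library 2 gave -0.12, whereas leaving out wild type library 1 gave -0.02 and leaving out its pair gave -0.09. With library totals alone it was 0.05, where the median over all genes was 0.08.

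The intervals of these differences were narrow for a design of 2 libraries a group. For all 9 subunits the 95% interval of the edgeR fit lay within a 1.5-fold change in either direction, which was true of 36.4% of all genes tested. It was true of 67.2% of the 4899 tested genes with a mean level within the subunits' own range of 32.2 to 228 CPM. Across the 9, the lowest lower limit was 0.701-fold (Arpc4) and the highest upper limit 1.36-fold (Arpc1a). These intervals borrow the spread of other genes, and the count fell to 6 of 9 without wild type library 1 and to 4 of 9 without wild type library 2. It was 9 and 8 of 9 without double knockout library 1 or 2. The median size of the change, whatever its sign, was 0.05 on the log2 scale for the subunits. It was 0.17 for the tested genes in their range of levels and 0.22 for all genes tested.

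**Figure D1:**
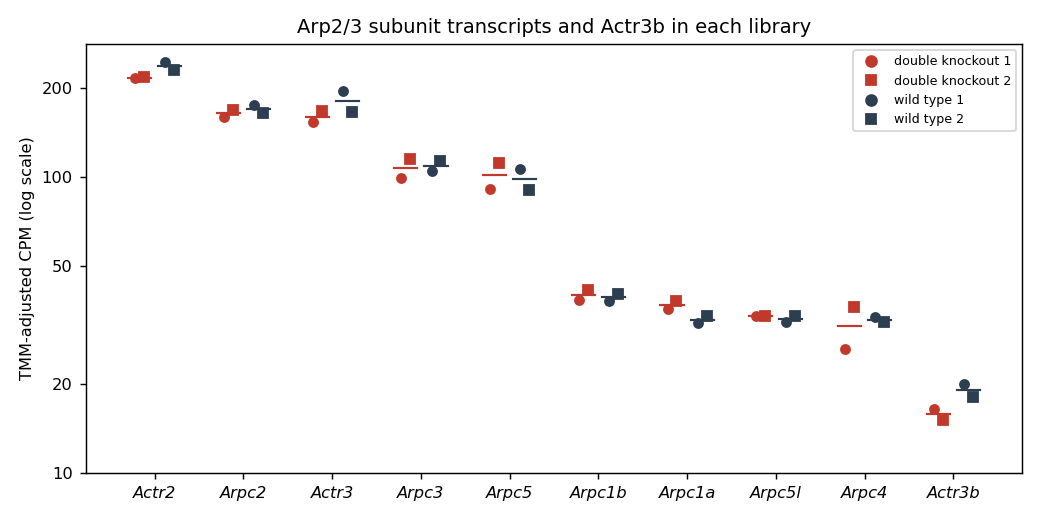
TMM-adjusted CPM (log scale) of the 9 Arp2/3 subunit genes and of Actr3b in each library, double knockout left of wild type in each pair, with circles for library 1, squares for library 2 and a bar at the mean of 2. The genotypes overlap for 7 of the 9 subunits and for 7831 of all 16009 genes tested. Actr2 and Actr3b lie lower and Arpc1a higher in both double knockout libraries.

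Actr2 had the highest count of the 9 in every library, and Actr3 lay close to Arpc2. Actr2, which encodes ARP2, was at 217 and 217 CPM in double knockout hearts and at 245 and 231 CPM in wild type hearts. Both double knockout libraries lay below both wild type libraries, an order that 25.2% of all tested genes showed. The log2 fold change of Actr2 was -0.14 (SE 0.10, 95% interval -0.39 to 0.12; edgeR adjusted p = 0.546). Actr3, which encodes ARP3, was at 153 and 167 CPM in double knockout hearts and at 196 and 166 CPM in wild type hearts. Wild type library 1 stood above the rest, and the other wild type library fell between the double knockout ones. Its log2 fold change was -0.18 (SE 0.13, interval -0.49 to 0.13; edgeR adjusted p = 0.514).

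The Actr3 level is uncertain because of Gm8822, a processed pseudogene on chromosome X that is 98.8% identical to the Actr3 transcript over 2348 bases. How the authors treated reads that match both genes is not known here. The first 100 coding bases (GENCODE M21 transcripts) are printed once because both genes carry them without a single difference, so a read from this stretch cannot be placed; the identity runs on to base 195 of the coding sequence. No letter is in capitals since none differs.
Actr3 and Gm8822: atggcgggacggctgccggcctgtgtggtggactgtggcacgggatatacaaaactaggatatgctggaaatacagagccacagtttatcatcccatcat
Gm8822 was at 76.8 and 98.2 CPM in double knockout hearts and at 109.9 and 93.9 CPM in wild type hearts. It held 33.4% and 37.0% of the reads of both genes in double knockout and 35.9% and 36.1% in wild type. With its reads added to Actr3, the sum was 230.1 and 265 CPM in double knockout and 306 and 260.0 CPM in wild type, a log2 fold change of -0.19 (interval -0.53 to 0.14; edgeR adjusted p = 0.512).

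Actr3b encodes a second form of ARP3 and is outside the list of 9. It was at 16.5 and 15.1 CPM in double knockout hearts and at 20.1 and 18.1 CPM in wild type hearts, with both double knockout libraries lower. Its log2 fold change of -0.27 (SE 0.14, interval -0.62 to 0.08) did not pass the test (edgeR adjusted p = 0.391), and its lower limit reached past a 1.5-fold change.

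The core subunits Arpc2 and Arpc4 overlapped between genotypes. Arpc2 was at 160.2 and 169 CPM in double knockout hearts and at 175 and 165 CPM in wild type hearts, a log2 fold change of -0.05 (SE 0.10, interval -0.30 to 0.21; edgeR adjusted p = 0.852). Arpc4, the gene with the CArG box shown above, was at 26.3 and 36.4 CPM in double knockout hearts and at 33.7 and 32.3 CPM in wild type hearts. Its double knockout libraries were the lowest and the highest of the 4, and they differed by 0.47 on the log2 scale, the widest gap within a group among the 9. The log2 fold change of Arpc4 was -0.08 (SE 0.18, interval -0.51 to 0.36; edgeR adjusted p = 0.858). Its sign depended on the library: 0.14 without double knockout library 1 and -0.33 without library 2 (edgeR unadjusted p = 0.0309, adjusted p = 0.162). Ttll3 overlaps exons of Arpc4 over 283 bases on the same strand, with 210 counts over all 4 libraries.

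Arpc3, which encodes a small subunit bound to ARP3, was at 99.6 and 115 CPM in double knockout hearts and at 105 and 113 CPM in wild type hearts. The 4 values interleaved by genotype, and the log2 fold change was -0.02 (SE 0.12, interval -0.31 to 0.27; edgeR adjusted p = 0.948).

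In the ARPC1 pair, the genotypes did not overlap for Arpc1a and did for Arpc1b. ARPC1 is a propeller-shaped subunit at the contact between the complex and its activators, and in people ARPC1B is the form on which blood cells depend. Arpc1a was at 35.8 and 38.1 CPM in double knockout hearts and at 32.1 and 33.9 CPM in wild type hearts. The double knockout values were both above the wild type ones, as for 25.8% of all tested genes. The log2 fold change of Arpc1a was 0.16 (SE 0.12, interval -0.13 to 0.45; edgeR adjusted p = 0.526). Arpc1b was at 38.3 and 41.4 CPM in double knockout hearts and at 38.3 and 40.3 CPM in wild type hearts, with a log2 fold change of 0.02 (SE 0.12, interval -0.26 to 0.31; edgeR adjusted p = 0.943). The strand setting of the counting is not given, and 931 bases of Arpc1b exons overlap Pdap1 on the opposite strand. The pseudogene Gm5637, 97.5% identical over 1119 bases, was at 4.55 and 4.96 CPM in double knockout and at 4.58 and 3.82 CPM in wild type, so part of the Arpc1b level is uncertain.

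Arpc5 and Arpc5l encode the forms of ARPC5, the subunit that tethers ARP2 to the complex. Arpc5 was at 91.1 and 112 CPM in double knockout hearts and at 107 and 90.7 CPM in wild type hearts. Each genotype had a high and a low library, with gaps of 0.29 (double knockout) and -0.24 (wild type) on the log2 scale, library 2 against library 1. The log2 fold change of Arpc5 was 0.04 (SE 0.15, interval -0.32 to 0.39; edgeR adjusted p = 0.924). Arpc5l was the steadiest of the 9 within double knockout, at 33.8 and 33.9 CPM, and was at 32.5 and 34.0 CPM in wild type hearts. Its log2 fold change was 0.03 (SE 0.12, interval -0.25 to 0.31; edgeR adjusted p = 0.927).

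**Figure D2:**
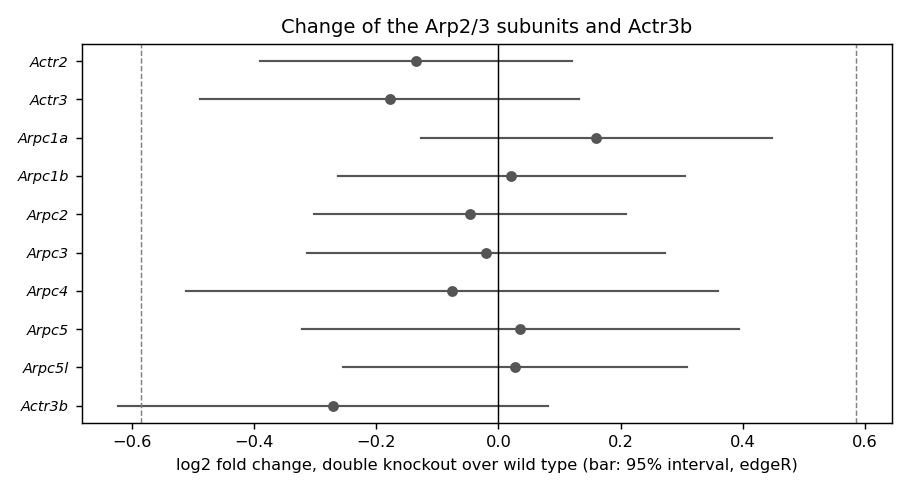
Log2 fold change, double knockout over wild type, of the 9 subunits and Actr3b, with 95% intervals of the edgeR fit on 2 libraries a group and dashed lines at a 1.5-fold change. The intervals of all 9 subunits cross 0 and stay between the dashed lines, and that of Actr3b reaches -0.62.

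For 7 of the 9 subunits the libraries of 1 genotype differed by more than the means of the genotypes did, against 62.8% of all genes tested. The exceptions were Actr2 and Arpc1a, the members whose genotypes did not overlap. The mean profile of the 9, on the log2 scale and centred on its own mean, was at -0.09 and 0.06 in double knockout libraries 1 and 2 and at 0.03 and -0.01 in wild type libraries 1 and 2. Double knockout library 1 was lowest and double knockout library 2 highest. Among the 10408 genes with a mean of at least 5 CPM compared with this profile over 4 libraries, the nearest 5 were Togaram1, Uchl5, Dda1, Tbc1d8b and Actr10. Their root mean square differences were 0.00506 to 0.00839 on the log2 scale, and the median gene stood at 0.162. These genes were picked as the nearest, so their small differences follow from the choice. Single subunits differed from the profile by 0.0324 (Arpc2) to 0.116 (Arpc4). They help make the profile, so their closeness to it cannot show that they vary together. Actr10, another actin-related gene, belongs to dynactin, a partner of the dynein motor.

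As a share of all counts, the 9 genes held 0.0887% and 0.0939% in double knockout hearts and 0.0929% and 0.0895% in wild type hearts. Summed per kilobase of annotated exon, the 9 genes reached 269.9 and 298 TMM-adjusted CPM per kb in double knockout and 302 and 285 CPM per kb in wild type. The means were 284 ± 19.7 in double knockout and 293 ± 12.1 in wild type (SD, n = 2 each), a ratio of 0.967. The groups overlapped, and the ratio was 1.02 with scaling by library totals alone and 1.01 without double knockout library 1.

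Per length, the 7 positions of the complex were not present at equal levels. ARPC2 was the highest in every library, at 78.8 and 83.1 CPM per kb in double knockout and at 85.9 and 81.2 CPM per kb in wild type. ARPC4 was the lowest in every library, at 11.3 and 15.7 CPM per kb in double knockout and at 14.5 and 13.9 CPM per kb in wild type. The highest position exceeded the lowest 6.95-fold and 5.30-fold in double knockout and 5.93-fold and 5.84-fold in wild type. Next after ARPC2 came ARPC5 (both genes summed), at a mean of 51.4 CPM per kb over the 4 libraries, and ARP2, at 43.7 CPM per kb. ARPC3 (39.1 CPM per kb) and ARP3 (36.8 CPM per kb) exchanged places between libraries, so their order does not exceed the spread. ARP3 was computed here from Actr3 reads alone. Gm8822 held 33.4% to 37.0% of the reads of both genes, so the place of ARP3 among the positions is uncertain. ARPC1 (both genes summed) stood sixth in every library, at 21.4 CPM per kb.

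The order in the upper part also depends on the length used. The union of annotated exons makes Arpc3 2762 bases long, whereas its principal transcript has 899. With principal transcripts, ARPC3 had 111 and 128 CPM per kb in double knockout and 116 and 126 CPM per kb in wild type. ARPC2 then had 111 and 117 CPM per kb in double knockout and 121 and 115 CPM per kb in wild type, and the lead changed between libraries. ARPC4 stayed lowest and ARPC1 next to lowest with either length in all 4 libraries.

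**Figure D3:**
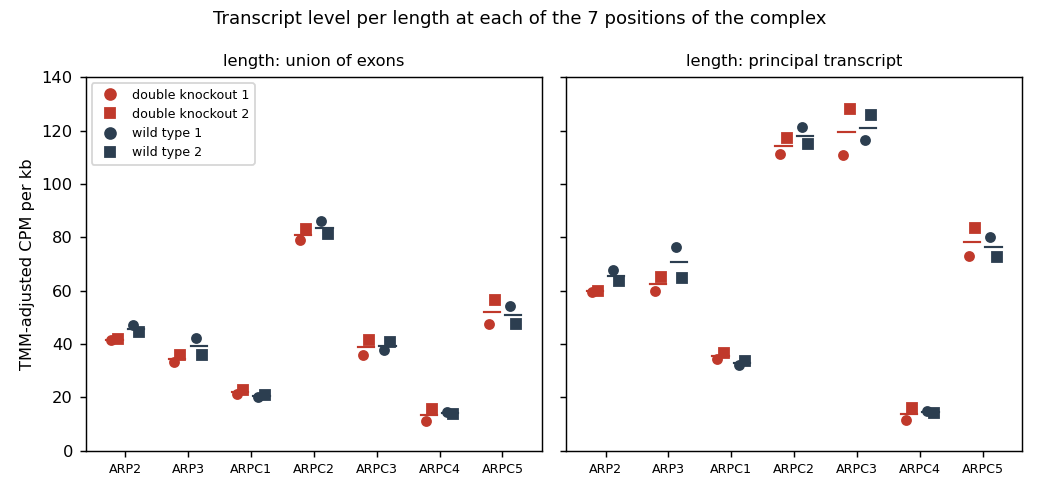
TMM-adjusted CPM per kb at the 7 positions of the complex in each library (Arpc1a with Arpc1b, and Arpc5 with Arpc5l, summed), double knockout left of wild type, with a bar at the mean of 2, using the union of exons (left) or the principal transcript (right). The genotypes share the same outline in both panels, and ARPC3 moves up beside ARPC2 with principal transcripts.

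Shares within a pair of paralogs do not depend on the scaling between libraries. Arpc1b made up 35.0% and 35.3% of the per-length level of Arpc1a and Arpc1b in double knockout hearts and 37.4% and 37.4% in wild type hearts. The means were 35.2% ± 0.245 in double knockout and 37.4% ± 0.0303 in wild type (SD, n = 2 each), a difference of -2.23 percentage points. The groups did not overlap and the difference exceeded the spread within them. The exact two-sided permutation test gave p = 0.333, the smallest that 2 libraries against 2 allow, and 1.0 adjusted over the 3 pairs tested. With any library left out the difference lay between -2.40 and -2.06 points, and with principal transcripts it was -2.26. Counting error was of the same size. As a share of reads, Arpc1b had 51.7% (95% Wilson interval 49.6 to 53.9) and 52.1% (49.4 to 54.8) in double knockout and 54.4% (52.2 to 56.5) and 54.3% (52.0 to 56.6) in wild type. These intervals overlap between the genotypes and cover counting error only.

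Sums of some marker lists of other cell types did not overlap between genotypes, and others did. Among single genes tested, 25.8% lay above and 25.2% below wild type in both double knockout libraries. The 12 leukocyte and macrophage markers, all read in the files, summed to 105 and 87.3 CPM in double knockout hearts. They summed to 75.9 and 82.3 CPM in wild type hearts, lower than in both double knockout libraries. Of the 12, 9 had a log2 fold change above 0 and 0 passed the edgeR test. All 12 were read in every library. The 4 tested platelet and megakaryocyte markers summed to 8.18 and 9.05 CPM in double knockout and to 5.89 and 7.23 CPM in wild type. The 5 epicardial markers summed to 179.6 and 149 CPM in double knockout and to 132 and 125 CPM in wild type. Both sums were higher in double knockout, with 3 of the 4 and 4 of the 5 log2 fold changes above 0. The 7 smooth muscle and pericyte markers summed to 568 and 538 CPM in double knockout and to 688 and 711 CPM in wild type. This sum was lower in both double knockout libraries, with 0 of the 7 log2 fold changes above 0. For each of these lists, fewer or more cells of a type and a change of RNA per cell cannot be told apart. Erythroid, endothelial and fibroblast sums overlapped between genotypes, and 0 markers of these lists passed. The part of these lists in the Arpc1b share, which was lower in double knockout, was not tested.

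Arpc5l made up 15.8% and 13.3% of the per-length level of Arpc5 and Arpc5l in double knockout hearts and 13.3% and 15.9% in wild type hearts. The genotypes overlapped fully, with a difference of -0.06 percentage points (exact two-sided permutation p = 1.0). The size of this share depends on the length used, since Arpc5l has 4498 bases of exons in the union and 1339 in its principal transcript. With principal transcripts it was 34.7% and 30.3% in double knockout and 30.3% and 34.9% in wild type. Actr3b made up 17.1% and 14.7% of the per-length level of Actr3 and Actr3b in double knockout hearts and 16.3% and 17.2% in wild type hearts, an overlap (exact two-sided permutation p = 0.667). This share carries the uncertainty of Actr3.

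**Figure D4:**
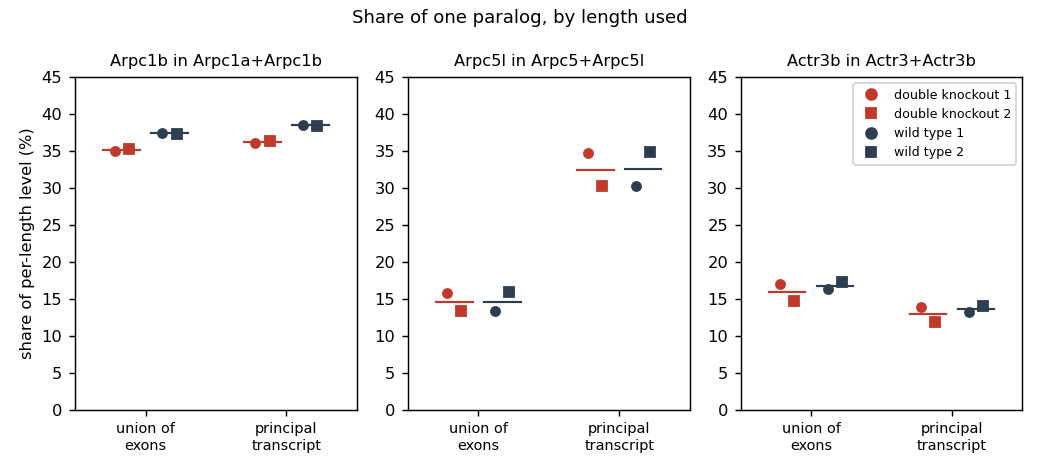
Share (%) of Arpc1b, Arpc5l and Actr3b in the per-length level of their pair, in each library, double knockout left of wild type, with a bar at the mean of 2, for each of 2 ways to set the length. The Arpc1b share is about 2 points lower in both double knockout libraries with either length, while the other shares overlap.

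The complex is inactive until a nucleation-promoting factor such as N-WASP (Wasl) or a WAVE protein (Wasf1 to Wasf3) engages it, and these in turn answer to the GTPases Cdc42 and Rac1. Of the 25 factors and partners in the list, all tested, 0 rose and 1 fell by the edgeR test, Cyfip2, where 0.0125% of all genes tested rose and 0.0625% fell. DESeq2 also called Cyfip2 alone, 1 of 25, where it called 3.32% of all genes tested. Cyfip2, a subunit of the WAVE regulatory complex, was at 7.72 and 8.93 CPM in double knockout hearts and at 28.1 and 31.2 CPM in wild type hearts, a log2 fold change of -1.84 (interval -2.21 to -1.46; edgeR adjusted p = 0.0390). Its fold change stayed between -1.94 and -1.73 under all alternatives. The edgeR adjusted p was 0.0616 with a replicate block, 0.0863 with a crossed block, 0.0523 with a stricter filter, and 0.318 or 0.283 without wild type library 1 or 2, so that it did not pass there. The related Cyfip1 was at 63.3 and 81.2 CPM in double knockout hearts and at 72.5 and 71.6 CPM in wild type hearts (log2 fold change 0.00, interval -0.35 to 0.35). At an unadjusted p under 0.05, 3 members of the list lay higher and 2 lower, against 8.70% and 8.63% of all genes tested.

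The 3 above wild type at that level did not pass after adjustment. Cttn encodes cortactin, which binds Arp2/3 at branches and stabilises them. It was at 182 and 189 CPM in double knockout hearts and at 147 and 142 CPM in wild type hearts, without overlap (log2 fold change 0.36, interval 0.11 to 0.61; edgeR adjusted p = 0.189). Jmy, a nucleation factor that also acts in transcription with p300, was at 143 and 180.5 CPM in double knockout hearts and at 115 and 120.1 CPM in wild type hearts (0.46, interval 0.11 to 0.80; edgeR adjusted p = 0.204). Abi1, an adaptor in the WAVE complex, was at 76.3 and 94.5 CPM in double knockout hearts and at 63.7 and 67.0 CPM in wild type hearts (0.38, interval 0.06 to 0.71; edgeR adjusted p = 0.238). Without double knockout library 1 these 3 and Washc1 (the WASH subunit of endosomes) passed as higher, that is 4 of 25 where 9% of all genes tested in that setting did. Without library 2 none of them did, where 3.78% of all genes passed as higher, and Cyfip2 was the 1 member lower, where 4.46% of all genes were. Each of these fits kept 1 double knockout library, assumed to vary like wild type, so its calls rest on that library. Washc1 was at 26.7 and 46.0 CPM in double knockout hearts and at 21.3 and 24.2 CPM in wild type hearts. In the main test its log2 fold change was 0.67 (interval -0.003 to 1.34; edgeR adjusted p = 0.291). Nck1, an adaptor that recruits N-WASP, was at 57.6 and 57.3 CPM in double knockout hearts and at 65.6 and 73.3 CPM in wild type hearts (-0.28; edgeR adjusted p = 0.278).

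By mean level per length over the 4 libraries, Cdc42 and Nckap1, a WAVE complex subunit, stood highest, although Rac1 lay above Nckap1 in every library but wild type library 1. Cdc42 was at 417 and 402 CPM in double knockout hearts and at 454 and 437 CPM in wild type hearts (log2 fold change -0.12, interval -0.39 to 0.15; edgeR adjusted p = 0.608). Nckap1 was at 224 and 256 CPM in double knockout hearts and at 256 and 226 CPM in wild type hearts (-0.01, interval -0.32 to 0.30; edgeR adjusted p = 0.985). The list as a whole had 17 members above and 8 below 0, with a median of 0.07. Of all 16009 genes tested, 8206 lay above 0, and their median was 0.01.

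Of the 11 genes that restrain the complex or take branches apart, 10 were tested, 0 passed in either direction and 0 reached an unadjusted p under 0.05 (edgeR), where 0.075% and 17.3% of all genes tested did. DESeq2 called 0, against 3.32% of all genes. The most abundant per length were Coro6, a coronin of muscle, and Gmfb, a debranching factor. Coro6 was at 135 and 108 CPM in double knockout hearts and at 172 and 142 CPM in wild type hearts, lower in both double knockout libraries (log2 fold change -0.37, interval -0.75 to 0.01; edgeR adjusted p = 0.30). Gmfb was at 168 and 176 CPM in double knockout hearts and at 165 and 149.5 CPM in wild type hearts (0.13, interval -0.14 to 0.40; edgeR adjusted p = 0.594). Coro1a was at 2.72 and 1.47 CPM in double knockout and at 3.67 and 3.38 CPM in wild type. Its log2 fold change was -0.71 (edgeR adjusted p = 0.344), with a count of 24 in double knockout library 2. Coro2b was at 12.8 and 34.2 CPM in double knockout and at 14.9 and 15.3 CPM in wild type, an overlap. Its log2 fold change was 0.63 (edgeR adjusted p = 0.548). A fit without double knockout library 1 rests on library 2 alone for that group. Without double knockout library 1, Coro6 and Coro1a passed below and Coro2b above wild type, that is 2 and 1 of 10 where 8.13% and 9% of all genes did.

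Among 7 other actin-related genes, Actr3b included, 0 passed by edgeR or DESeq2 (0.075% and 3.32% of all genes tested), and 1 had an unadjusted edgeR p under 0.05 (17.3% of all genes tested). This was Actr5, a subunit of the INO80 chromatin remodeller, at 8.89 and 9.42 CPM in double knockout hearts and at 6.31 and 6.67 CPM in wild type hearts (log2 fold change 0.49, interval 0.07 to 0.92; edgeR adjusted p = 0.241). Actr1a and Actr1b, the actin-like filament of dynactin, were the most abundant per length, with log2 fold changes of 0.09 and -0.16 (edgeR adjusted p = 0.694 and 0.502).

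**Figure D5:**
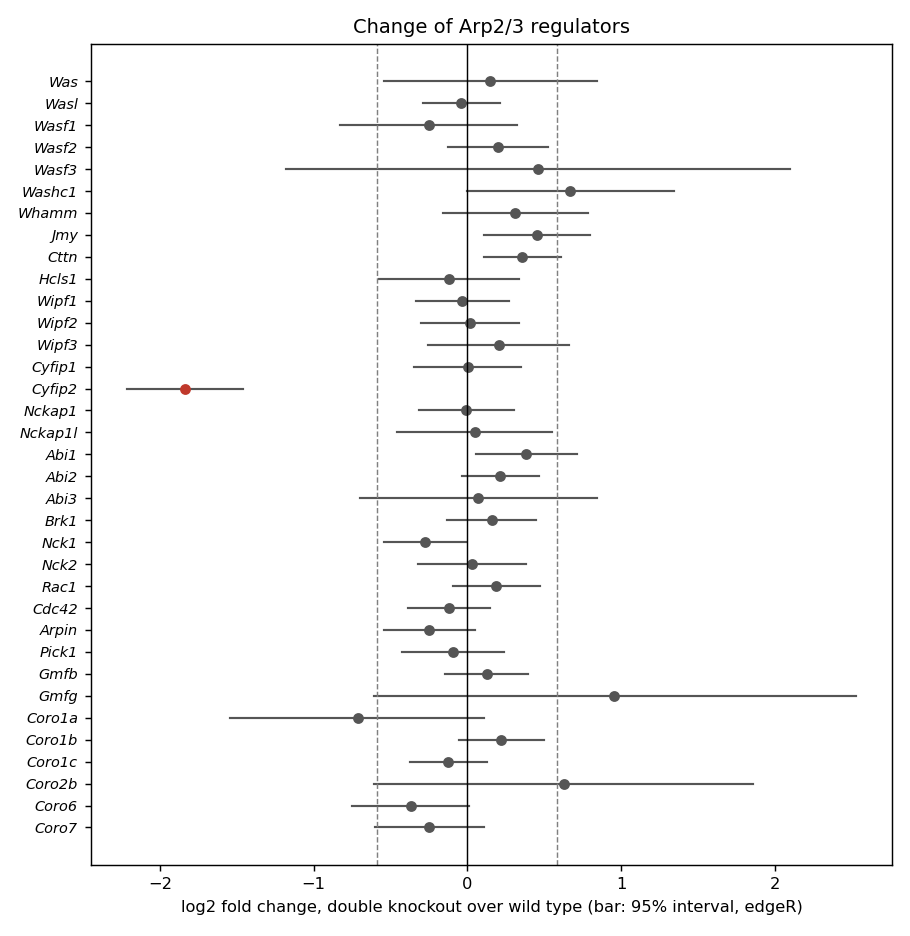
Log2 fold change, double knockout over wild type, of the 25 nucleation-promoting factors and partners (top, Was to Cdc42) and the 10 tested inhibitors and debranching factors (bottom, Arpin to Coro7), with 95% intervals of the edgeR fit on 2 libraries a group and dashed lines at a 1.5-fold change. Cyfip2 (red, the only gene past the threshold) stands apart at -1.84, and poorly read genes such as Gmfg and Wasf3 have the widest intervals.

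Actb, a cytoplasmic actin that the complex assembles, was at 449 and 462 CPM in double knockout hearts and at 723 and 658 CPM in wild type hearts. Its log2 fold change of -0.60 (interval -0.88 to -0.32) did not pass the edgeR threshold (adjusted p = 0.141). The other cytoplasmic actin, Actg1, was at 10.3 and 8.26 CPM in double knockout and 16.6 and 14.6 CPM in wild type. Its log2 fold change was -0.74 (interval -1.19 to -0.30), and it did not pass either (edgeR adjusted p = 0.163). Near-identical copies of Actb and Actg1 were not searched for, and the treatment of reads that match several genes is not known. The levels of both are thus uncertain. The difference between these actins and the subunits was not tested.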

How the data were processed

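Per the submitters' processing notes, the authors counted reads per gene with HTSeq on build mm10 and also name DESeq 1.10.1; the deposited files hold raw counts, 1 file per library. The aligner, annotation release and strand setting (not given in the sources used here) could not be checked. Of 43346 identifiers, 42462 matched GENCODE M21 of the same build, which gave symbols and exon lengths; 0 rows name no gene.

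The main test was edgeR 4.0.16 in R 4.3.3 (quasi-likelihood, filterByExpr, TMM, robust, no covariate, 4 libraries in 1 fit), with Benjamini-Hochberg adjustment over 16009 genes. Intervals use the SE and the moderated degrees of freedom of that fit. Shares were tested with an exact permutation test in scipy 1.17.1. Depth was 16175259 to 29460641 counts, and the smallest subunit count was 554. DESeq2 1.42.0, limma-voom 3.58.1, other scalings and filters, a replicate block and leaving out each library were alternatives. The fit was tested on simulated data.

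Named genes were the subunits, Actr3b, Mrtfa, Mrtfb, Srf, up to 6 regulators per list with the smallest unadjusted p under 0.05, the 2 most abundant per length, and the 5 genes nearest the mean profile. Cyfip1, Washc1, Coro1a, Coro2b, Gmfg, Wasf3, Actb, Actg1 and the pseudogenes were added after their values were seen. Members and lists were chosen with earlier results of these data known.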

Additional observations from a re-analysis of the deposited data

How the results depend on the processing

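For the 9 subunits, 0 were past the threshold in either direction under all 15 alternatives, and their adjusted p lay between 0.162 and 0.997. Of 135 fold changes recomputed, 125 kept their sign. Against main values of 0.02 (Arpc1b), -0.05 (Arpc2), -0.02 (Arpc3), -0.08 (Arpc4), 0.04 (Arpc5) and 0.03 (Arpc5l), the sign turned as follows. With library totals alone Arpc2 was at 0.024 and Arpc3 at 0.048. With a library left out, Arpc1b ran from -0.036 to 0.075, Arpc3 from -0.13 to 0.080, Arpc4 from -0.33 to 0.14, Arpc5 from -0.12 to 0.17 and Arpc5l from -0.0096 to 0.047. A group left with 1 library is assumed there to vary like the other. The cause was not tested.

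The summed level ratio was 1.02 with library totals alone and 0.920 to 1.01 with a library left out. The Arpc1b share differed by -2.40 to -2.06 points with a library left out, the Arpc5l share by -1.38 to 1.25 (1.25 without wild type library 2, 1.18 without double knockout library 2) and the Actr3b share by -2.06 to 0.27 (0.27 without double knockout library 2).

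Over all tested genes, edgeR called 2 higher and 10 lower. The counts were 729 and 785 with no filter and 281 and 251 in DESeq2. The higher count was 1 with RLE or upper-quartile factors, the stricter filter, limma-voom and no robust estimation. With a replicate block they were 0 and 2, and with the crossed block, added because same-numbered libraries deviated at r = -0.10 over genes, 0 and 3. With a library left out they ranged from 0 to 1468 and from 2 to 1327, both highest without double knockout library 1. Among nucleation-promoting factors no filter gave 2 higher, where 729 of 24928 genes were. The stricter filter and both blocks gave 0 lower. With a library left out, 0 to 4 of these were higher and 0 to 1 lower, and 0 to 1 inhibitors were higher and 0 to 2 lower. The replicate numbers are not stated to pair libraries, and the block changed no subunit's call. The crossed block, the added pseudogene reads and the principal transcript length were chosen after seeing the data.

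Depth limits the precision of the paralog shares to at most 2.71 points either way in 1 library, and 2 libraries a group cannot give a permutation p below 0.333.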
